A study of Nicotiana benthamiana with 9 samples.

Results

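Among the assembled sequences of Nicotiana benthamiana measured in leaves, 53 of 56094 carried more RNA reads after heat and fewer after wounding than in mock plants. The members were chosen from the authors' deposited CPM columns (counts per 1000000 with a scaling factor per library) by the group means of mock, heat and wounded libraries. The heat mean had to be at least 5 CPM, the heat-to-mock ratio at least 1.5 and the wound-to-mock ratio at most 0.67, with 0.5 CPM added to each mean. Every heat library also had to lie above every mock library, and every wounded library below every mock library. Since these values chose the members, the differences from mock are given as a description, and the number of members that a count test also calls is no support for them.

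Nicotiana benthamiana is a wild relative of tobacco that is much used for transient gene expression. The study had 3 groups of 3 libraries from leaves of soil-grown plants 5 weeks old, raised in long days. Mock plants stayed at 23 °C for 1 h and were not wounded, heat-treated plants were held at 37 °C for 1 h, and wounded plants were cut with scissors and kept at 23 °C for 1 h. No genotype or line is named for any group, and the series calls the 3 libraries of a group biological replicates without saying which plants gave each one.

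Heat and wounding act on leaf cells through partly separate signals. In heat, unfolding proteins release heat shock transcription factors, which switch on genes for chaperones that refold or hold damaged proteins. Wounding releases calcium and electrical signals and leads within minutes to the synthesis of jasmonates, hormones that lift the repression of defence genes, while genes for growth and photosynthesis are often turned down. None of these genes can be pointed to here, because each row of the table is a whole scaffold or contig and carries no gene identifier. For the same reason the leaf origin of the samples could not be compared with marker genes. A long scaffold can hold many genes, so its rise after heat and its fall after wounding may belong to different genes on it. Reads or read pairs were counted in bulk leaf tissue, where fewer cells of a type and less RNA per cell cannot be told apart.

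Library totals lay between 13846165 and 17480792 counts, so that 1 count was worth 0.0589 to 0.0759 CPM. All 53 members passed the filter on low counts, as did 9645 sequences in all. The lowest count of a member was 21 in any mock library and 10 in any wounded library, and 8 members had fewer than 30 counts in at least 1 wounded library.

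The heat conditions were met by 2.75% of the 56094 sequences and 16% of the 9645 tested, and the wounding conditions narrowed these to the 53. Of 7165 sequences with a heat mean of at least 5 CPM, 1621 had a heat-to-mock ratio of at least 1.5, and 1543 of these had no overlap between heat and mock libraries. The wounding ratio left 63 of the 1543, and the non-overlap of wounded and mock libraries left 53, or 3.43% of the 1543 and 0.55% of the 9645 sequences tested for count changes. Of all 9645 tested sequences, with no minimum level set, 386 (4%) met these wounding conditions. The fall after wounding was therefore not more frequent among the 1543 than among the tested sequences in general. The same conditions turned upward found 195 of the 1543 raised by wounding as well. The other 1295 met neither wounding condition set. The mirror pattern, raised by wounding and lowered by heat, was met by 93 sequences when the limits were exchanged. Viewed from wounding, 250 sequences with a mock mean of at least 5 CPM met the wounding conditions. Of these 250, 45 (18%) were members and 89 were lowered by heat under the corresponding limits. The heat conditions were met by 16% of all tested sequences, which had no minimum mock mean. The 18% thus lies near the general share.

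The members spanned a wide range of levels. Mock means ran from 1.75 to 247 CPM with a median of 29.0 CPM, heat means from 5.77 to 1382 CPM with a median of 80.7 CPM, and wounded means from 0.977 to 122 CPM with a median of 14.9 CPM. The median over all 9645 tested sequences was 24.1 CPM in mock libraries, 25.6 CPM after heat and 24.9 CPM after wounding. By mock mean, 8 members were under 5 CPM, 10 were from 5 to under 20 CPM, 29 from 20 to under 100 CPM and 6 at 100 CPM or more.

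**Figure D1:**
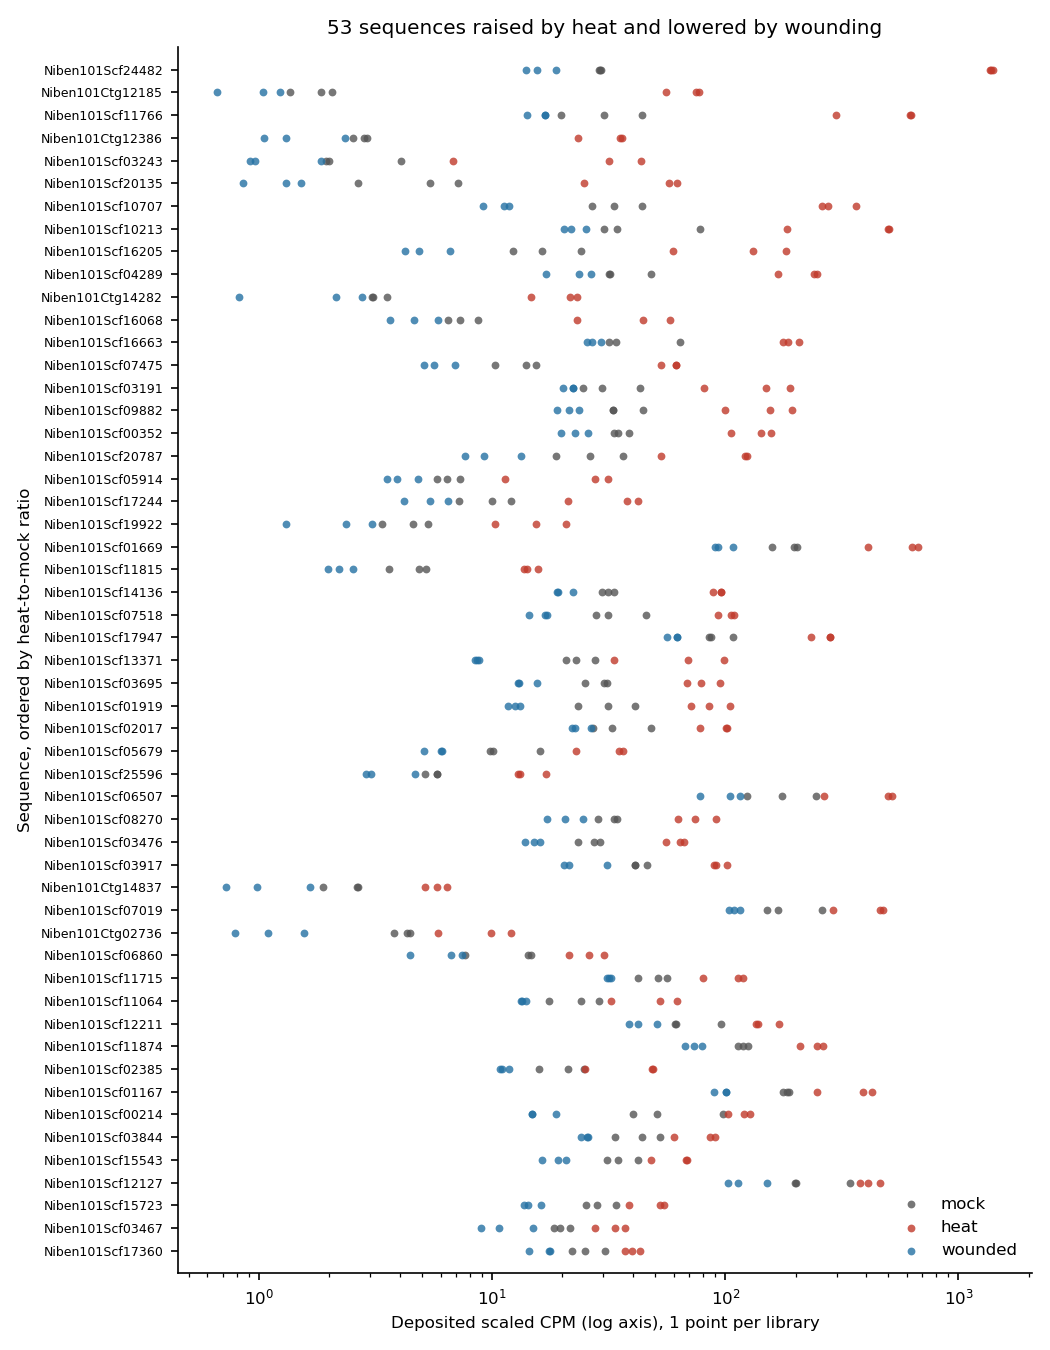
Level of each of the 53 members in every library, in deposited scaled CPM on a log axis, with 1 point per library (grey mock, red heat, blue wounded) and the members ordered by heat-to-mock ratio. The blue, grey and red points of a member do not cross, as the selection required, and Niben101Scf24482 at the top has the highest heat values, from 1359.9 to 1409.5 CPM.

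Heat ratios covered a wider range than wounding ratios. The rule set no upper limit on heat ratios and held wounding ratios at 0.67 or less, so the ranges are a description. The heat-to-mock ratio ran from 1.54 to 47.0 with a median of 2.78, while the wound-to-mock ratio ran from 0.262 to 0.668 with a median of 0.564. A rise of at least 8-fold was seen in 8 members, of 4-fold to under 8-fold in 8, of 2-fold to under 4-fold in 28, and of under 2-fold in 9. A wound-to-mock ratio of 0.5 or less was seen in 13 members, and only 4 were at 0.33 or less. The fitted log2 fold changes of edgeR had a median over members of 1.51 for heat and -0.87 for wounding. Over all tested sequences these medians were 0.01 and 0.00.

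Median wound-to-mock ratios were close across the classes of heat rise. The rule held every one of these ratios at 0.67 or less, so the medians had little room to differ and nothing is read from their closeness. The median wound-to-mock ratio was 0.534 in the 8 members that rose at least 8-fold, 0.618 in the next 8, 0.567 in the 28 and 0.531 in the 9 smallest. In the same order, the ratios ran from 0.309 to 0.656, 0.317 to 0.668, 0.353 to 0.667 and 0.262 to 0.646. These ratios and the heat ratios share the mock libraries, so they are set side by side and not correlated. Heat means exceeded wounded means by ratios from 2.38 to 83.3 with a median of 5.67. The heat and wounding limits together forced such an excess in every member. The median was 0.98 over all tested sequences and 2.20 over the 1295 raised by heat that met neither wounding condition set.

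**Figure D2:**
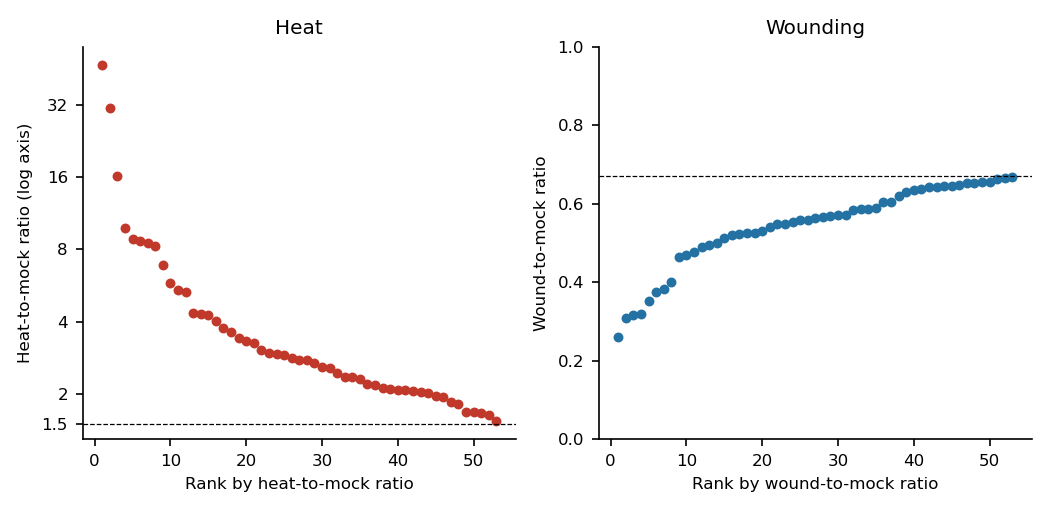
Ratio of the heat mean to the mock mean (left, log axis) and of the wounded mean to the mock mean (right) for the 53 members, each ranked on its own, with 0.5 CPM added to each mean. Dashed lines mark the limits of 1.5 and 0.67 used in the choice. Heat ratios reach 47.0, and wound ratios lie between 0.262 and 0.668.

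Niben101Scf24482 (positions 1 to 135573 of the scaffold) had the largest heat ratio. Mock libraries held 28.9, 28.7 and 29.1 CPM, heat libraries held 1409.5, 1359.9 and 1377 CPM, and wounded libraries held 13.9, 18.8 and 15.6 CPM. The 3 groups lay far apart and the spread inside each was small, with means of 28.9 ± 0.210, 1382 ± 25.2 and 16.1 ± 2.46 CPM (SD, n = 3). The heat-to-mock ratio was 47.0 and the wound-to-mock ratio 0.564. The log2 fold change fitted by edgeR was 5.59 ± 0.12 (SE) for heat and -0.85 ± 0.11 (SE) for wounding.

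Niben101Ctg12185, a contig of 1468 nt, came next by heat ratio and is short enough that few transcripts can lie on it. It had 21, 30 and 35 counts in mock, 764, 1018 and 1246 counts in heat and 16, 18 and 10 counts in wounded libraries. The heat libraries stood well above all others, while the highest wounded library (1.23 CPM) and the lowest mock library (1.35 CPM) were close. Group means were 1.75 ± 0.362 CPM in mock, 69.3 ± 11.98 CPM after heat and 0.977 ± 0.293 CPM after wounding (SD, n = 3). The heat-to-mock ratio was 31.0 and the wound-to-mock ratio 0.656.

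Niben101Scf11766 (positions 1 to 165323) was the third by heat ratio. Its mock libraries held 19.7, 43.7 and 30.1 CPM, its heat libraries 618, 298 and 625 CPM and its wounded libraries 16.9, 16.8 and 14.1 CPM. Heat replicate 2 was well below the other heat libraries and mock replicate 2 was the highest of mock. The heat-to-mock ratio was 16.2, and 20.3 without mock replicate 2. The wound-to-mock ratio was 0.520, and 0.649 without that library.

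The remaining members with a rise of at least 8-fold were Niben101Ctg12386, Niben101Scf03243, Niben101Scf20135, Niben101Scf10707 and Niben101Scf10213, with heat-to-mock ratios of 9.86, 8.81, 8.71, 8.53 and 8.27. Niben101Scf03243, Niben101Scf10707 and Niben101Scf10213 are named here to complete the 8, after their values were seen. Niben101Scf03243 was the least even of them after heat, with 31.7, 6.75 and 43.6 CPM, against 1.93, 4.05 and 2.002 CPM in mock libraries. Its wounded libraries held 0.910, 0.959 and 1.84 CPM, the last of them close to the lowest mock library. Its heat ratio was 12.1 without heat replicate 2 and 6.24 without heat replicate 3. Niben101Scf10707 was more even, with 363, 260.1 and 276 CPM after heat, 26.9, 44.1 and 33.1 CPM in mock and 11.8, 9.11 and 11.2 CPM after wounding.

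The deepest fall after wounding was that of Niben101Scf00214 (positions 1 to 839213), the longest member. Mock libraries held 40.2, 98.0 and 50.9 CPM, heat libraries 120.3, 102 and 128 CPM, and wounded libraries 14.8, 14.8 and 18.8 CPM. The wounded libraries were well below all mock libraries, while mock replicate 2 came close to the lowest heat library. The wound-to-mock ratio was 0.262 and the heat-to-mock ratio 1.85. Without mock replicate 2 they were 0.361 and 2.55. The fitted log2 fold change was -1.97 ± 0.28 (SE) for wounding and 0.90 ± 0.26 (SE) for heat.

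The next by depth of fall were Niben101Scf20135 (positions 1 to 160321) and Niben101Scf16205 (positions 1 to 74392), and both also rose strongly after heat. Niben101Scf20135 held 2.64, 7.12 and 5.42 CPM in mock, 61.9, 24.8 and 57.1 CPM in heat and 1.301, 1.51 and 0.854 CPM in wounded libraries. Its wound-to-mock ratio was 0.309. Niben101Scf16205 held 12.3, 23.9 and 16.4 CPM in mock, 132, 59.6 and 182 CPM in heat and 4.23, 4.86 and 6.57 CPM in wounded libraries. Its heat-to-mock ratio was 6.92 and its wound-to-mock ratio 0.317. In both, heat replicate 2 was the lowest heat library and mock replicate 2 the highest mock library, and the groups did not overlap.

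The 3 members most abundant in mock leaves were Niben101Scf12127, Niben101Scf07019 and Niben101Scf01669. Niben101Scf12127 (positions 1 to 106871) held 199.6, 343 and 200.2 CPM in mock, 463, 379.9 and 407 CPM in heat and 103, 151 and 114 CPM in wounded libraries. Its ratios to mock were 1.68 after heat and 0.496 after wounding, and its mock replicate 2 lay nearer to the heat libraries than to the other mock libraries. Niben101Scf07019 (positions 1 to 381562) held 151, 260.6 and 169 CPM in mock, 462, 289 and 476 CPM in heat and 103, 109 and 116 CPM in wounded libraries. Its ratios were 2.11 and 0.566. Niben101Scf01669 (positions 1 to 598087) held 159, 202 and 196 CPM in mock, 631, 408 and 668 CPM in heat and 107, 93.2 and 90.0 CPM in wounded libraries. Its ratios were 3.06 and 0.523, with clear gaps between the 3 groups.

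**Figure D3:**
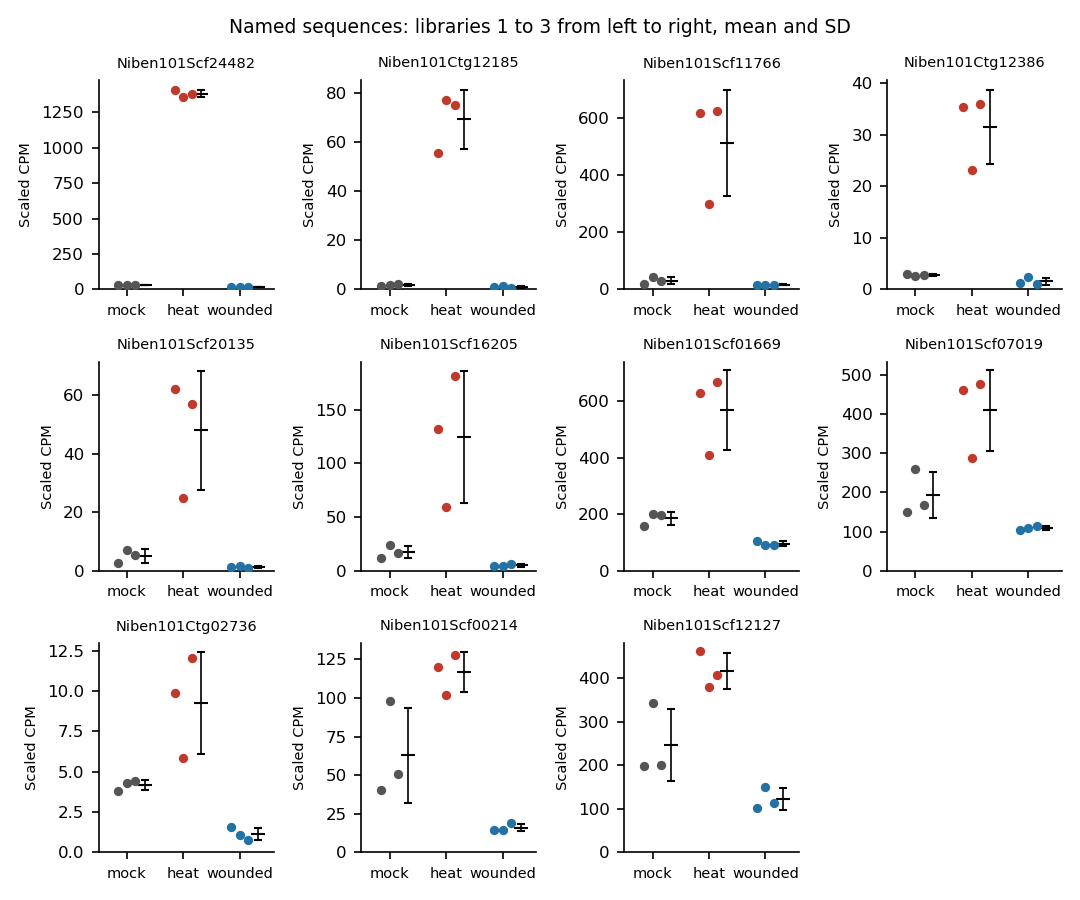
Deposited scaled CPM of the 11 members named by the selection rule, with libraries 1, 2 and 3 from left to right in each group and the mean with its SD (n = 3) beside them in black. Each panel starts at 0 and has its own scale. Heat replicate 2 is the lowest heat point in 10 of the panels, Niben101Ctg12185 being the exception, and the wounded points are the lowest in every panel.

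A short sequence has room for few genes, so in the short members both responses are least open to mixing between genes. There were 3 members under 2000 nt and 3 from 2000 nt to under 20000 nt, or 5.66% of the members in each class. In the tested table these classes made up 12.9% and 7.99%. A further 24 members (45.3%) were from 20000 nt to under 200000 nt, against 30.1% of the tested table, and 23 (43.4%) were longer, against 49% of it. In all, 5 members were contigs and 48 scaffolds. The median length was 156341 nt for the members and 193293 nt for the tested sequences. It was 249639 nt for the 1295 sequences raised by heat that met neither wounding condition set. Those 1295 met the same heat conditions as the members, whereas the tested sequences had no minimum heat mean. From shortest to longest, the classes made up 7.18%, 4.09%, 31.1% and 57.6% of the 1295. Length was not used in the choice, and these shares are given without a test.

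The shortest member was the contig Niben101Ctg02736, of 564 nt. It had 59, 70 and 75 counts in mock, 136, 77 and 200 counts in heat and 24, 16 and 12 counts in wounded libraries. The wounded libraries were far below the mock libraries. Heat replicate 2, at 5.84 CPM, came nearest to mock, where the highest library held 4.42 CPM. The wound-to-mock ratio was 0.353 and the heat-to-mock ratio 2.09, with fitted log2 fold changes of -1.86 ± 0.34 (SE) and 1.16 ± 0.29 (SE). Niben101Ctg12386, a contig of 1523 nt, had 45, 41 and 48 counts in mock, 488, 306 and 597 in heat and 20, 34 and 16 in wounded libraries. Its rise after heat was plain in every library, whereas wounded replicate 2 lay close to mock and the wound-to-mock ratio was 0.634. The remaining contigs, Niben101Ctg14282 (2519 nt) and Niben101Ctg14837 (3073 nt), had heat-to-mock ratios of 5.43 and 2.17 and wound-to-mock ratios of 0.647 and 0.559. Niben101Ctg14282 had 55, 50 and 52 counts in mock and 33, 12 and 42 in wounded libraries. In the edgeR test, Niben101Ctg12185, Niben101Ctg12386 and Niben101Ctg14282 were not called lower after wounding (adjusted p 0.0727, 0.0922 and 0.185). Niben101Ctg02736 and Niben101Ctg14837 were called (edgeR adjusted p 0.0036 and 0.0483). The only scaffold under 20000 nt was Niben101Scf13371 (11097 nt). It held 22.8, 27.7 and 20.8 CPM in mock, 69.1, 33.3 and 98.3 CPM in heat and 8.58, 8.42 and 8.73 CPM in wounded libraries. Its wounded libraries were nearly equal and its heat libraries were spread widely. Niben101Ctg14282, Niben101Ctg14837 and Niben101Scf13371 were named after their values were seen.

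Per length of the whole sequence, the 3 contigs under 2000 nt had the highest levels of the members after heat. The deposited RPKM (reads per kilobase and per 1000000 counts) of Niben101Ctg12185 averaged 1.25 ± 0.293 (SD, n = 3) in mock leaves and 45.1 ± 6.53 after heat. That of Niben101Scf24482 averaged 0.223 ± 0.0105 in mock leaves and 9.79 ± 0.492 after heat. RPKM divides by the whole scaffold or contig, so a scaffold with long untranscribed stretches has a low value whatever the level of its genes.

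Together the members took 0.195%, 0.315% and 0.229% of the counts in mock libraries, 0.903%, 0.615% and 0.870% in heat libraries and 0.124%, 0.127% and 0.126% in wounded libraries. The summed level was 2344 ± 469 CPM in mock, 8276 ± 1473 CPM after heat and 1260.2 ± 7.83 CPM after wounding (SD, n = 3). The wounded libraries lay within 1251.8 to 1267 CPM, while mock libraries ran from 1962 to 2867 CPM and heat libraries from 6575 to 9167 CPM. Niben101Scf24482 alone gave 22.8% of the summed increase after heat, and the first 6 members by increase gave 51.9%. Without Niben101Scf24482 the sums were 2315 ± 469, 6894 ± 1455 and 1244 ± 7.05 CPM. Of the decrease after wounding, Niben101Scf12127 gave 11.5%, and the first 7 members by decrease gave 51.5%. Niben101Scf01669 and Niben101Scf06507, the latter named after its values were seen, were among the leading members of both.

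**Figure D4:**
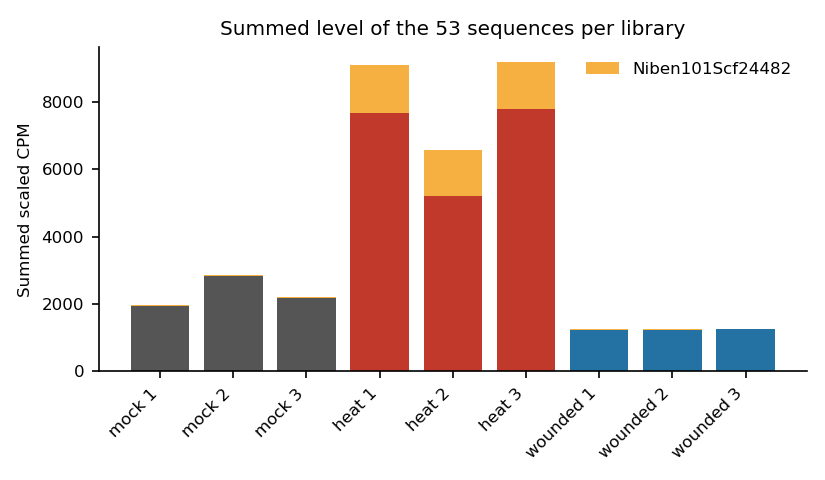
Summed deposited scaled CPM of the 53 members in each library, with the part of Niben101Scf24482 in orange. Heat replicate 2 reaches 6575 CPM against 9086 and 9167 CPM in the other heat libraries, mock replicate 2 is the highest mock library at 2867 CPM, and the wounded libraries are nearly level.

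The order of libraries inside a group was not a condition of the choice, and it was shared by most members. Mock replicate 2 was the highest mock library in 35 of 53 members (66%), against 45.3% of the 1295 sequences raised by heat that met neither wounding condition set and 38.5% of all tested sequences. Heat replicate 2 was the lowest heat library in 43 of 53 members (81.1%), against 50.4% and 38.1%. Both held for 32 members (60.4%), against 27.1% and 18.1%. In the 195 sequences raised by both treatments, both held for 32.8%. In the mirror set of 93 they held for 8.6%, and heat replicate 2 was there the highest heat library most often, in 47.3%.

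The size of these shifts was larger in the members than in the sets given beside them. Mock replicate 2 was 1.28 times the mean of the other mock libraries in the median member, with quartiles of 1.06 and 1.60, and 1.00 times in the tested sequences. Heat replicate 2 was 0.706 times the mean of the other heat libraries in the median member, with quartiles of 0.533 and 0.882, against 0.932 in the 1295 and 0.991 in the tested sequences. For wounded replicate 2 the median was 0.936 in members and 1.01 in the tested sequences. With this shared order the members are not counted as independent of each other, and how far they depend on each other was not tested. The order is also not wholly independent of the choice, since a high mock library raises the mock mean that the wounding ratio is divided by. Niben101Scf24482 was an exception in mock, where replicate 2 was the lowest of 3 nearly equal libraries. Its heat replicate 2 was lowest by a small margin. What sets replicate 2 apart in either group was not tested.

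**Figure D5:**
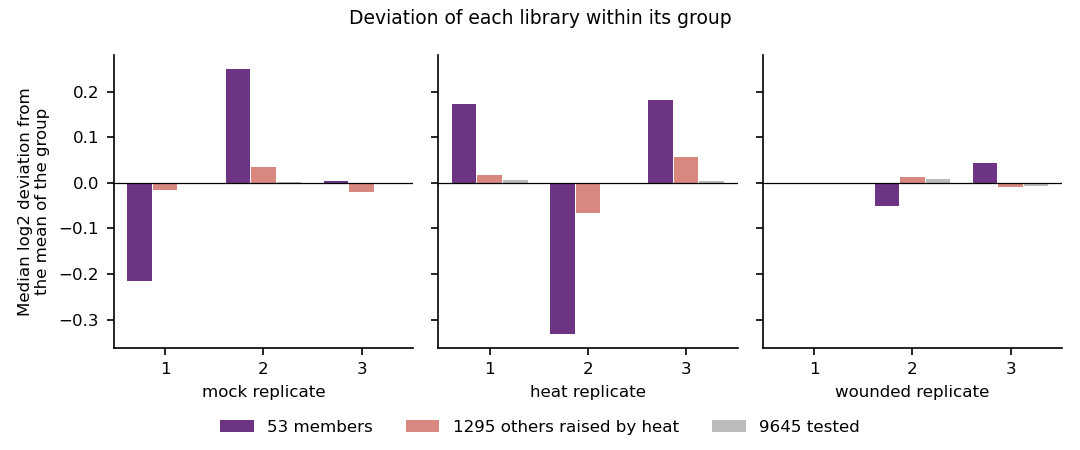
Median log2 deviation of each library from the mean of its group, in log2(scaled CPM + 0.5), for the 53 members, the 1295 other sequences raised by heat and all 9645 tested sequences. In the members mock replicate 2 lies at 0.25 and heat replicate 2 at -0.33, while the tested sequences lie within 0.01 of 0 in every library.

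The relative spread inside groups was larger in the members than in the tested sequences as a whole. The median coefficient of variation over members was 19.8% in mock, 19.4% in heat and 13.2% in wounded libraries. Over all tested sequences it was 12.1%, 13.8% and 10.8%, and over the 1295 it was 10.9%, 13.3% and 10.03%. The 195 sequences raised by both treatments had 15.8%, 19.4% and 15.3%, and the mirror set of 93 had 13.6%, 17.9% and 18.6%. In heat and wounded libraries the members were therefore not above every one of these sets.

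How clearly the groups were separated differed between members. The lowest heat library was at least 1.5 times the highest mock library in 34 members and at least 2 times in 22, but under 1.1 times in 3. The narrowest gap was that of Niben101Scf02385, with a lowest heat value of 24.9 CPM and a highest mock value of 24.8 CPM. After wounding, the highest wounded library was at most 0.67 of the lowest mock library in 14 members and over 0.9 of it in 12. Niben101Scf02017 was the closest, with 26.5 CPM in wounded replicate 3 and 27.0 CPM in mock replicate 1. These extremes were named after their values were seen.

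At the heat limit, the members just inside had ratios of 1.54 and 1.63 and the sequences just outside, with every other condition met, had 1.49 and 1.42. Near the wounding limit they were 0.668 and 0.667 inside and 0.672 and 0.678 outside. At the minimum heat mean they were 5.77 and 9.26 CPM inside and 4.57 and 3.88 CPM outside. The wounding limit was the crowded one, with 151 sequences beyond it that met every other condition, against 6 beyond each of the other limits. With limits of 2 and 0.5 in place of 1.5 and 0.67, 11 members remained. They were the members with both responses large, and their heat-to-mock ratios ran from 2.09 to 8.71. Apart from those named above they included Niben101Scf07475, with means of 13.2 ± 2.62 CPM in mock, 58.6 ± 4.74 CPM after heat and 5.88 ± 0.944 CPM after wounding (SD, n = 3).

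The choice by ratio and the test on counts met in most but not all members. With edgeR's quasi-likelihood test over all 9645 sequences and a Benjamini-Hochberg adjusted p under 0.05, 53 of 53 members were called higher after heat, where 27.4% of the tested sequences were. For wounding, 38 of 53 were called lower, where 5.02% of the tested sequences were. Both calls were made for the same 38, where 1.12% of the tested sequences had both. Every heat library lay above every mock library in 29.7% of the tested sequences, and every wounded library below every mock library in 16%. The choice used the same contrasts, so nothing is read from these counts. The 15 members not called lower after wounding had edgeR adjusted p from 0.0545 to 0.333, and 9 of them had a mock mean under 10 CPM. Among them were several of the 8 members that rose at least 8-fold after heat. These were Niben101Ctg12185, Niben101Scf11766, Niben101Ctg12386, Niben101Scf03243 and Niben101Scf10213, with edgeR adjusted p of 0.0727, 0.0573, 0.0922, 0.333 and 0.0965. In the other direction, 108 sequences had both calls and 70 of these were not members. Of the 70, 55 had a wound-to-mock ratio over 0.67 and 39 a heat-to-mock ratio under 1.5. Without wounded replicate 1, 24 members were called lower after wounding. Of all tested sequences 194 were then called lower, against 484 with all libraries.

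Membership moved with single libraries more than the counts of members show. With any single library left out, 54 to 77 sequences met the rule, and 34 of the 53 members were kept whichever library was left out. Without mock replicate 2, 54 sequences met the rule, and 40 of them were among the 53. Leaving out heat replicate 2, the lowest heat library in 43 of the 53, kept all 53 and added others, for 71 in all. Non-overlap is easier to meet with a library fewer, so nothing is read from the larger numbers. With counts per 1000000 of the library total in place of the deposited CPM, 58 sequences met the rule, 43 of them members.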

How the data were processed

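The authors deposited 1 table with 4 values for each of 9 libraries. Per the file headers these are the total count, RPKM, TPM and CPM of each assembly sequence. The deposited counts are whole numbers and were tested as they are. The deposited RPKM values are counts per kilobase of the whole sequence and per 1000000 counts. TPM values were deposited by the authors too and are not used here. The deposited CPM columns are a scaled signal, in which counts are divided by 1 constant per library, with sums from 909726 to 1068742. Per the labels' protocols, total RNA came from a Trizol extraction and a sequencing company built the libraries. The aligner, counter, strand setting, rule for multiply matching reads and build: not given in the sources used here. Near-identical sequences are therefore uncertain.

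The 53 members and all lists were chosen with earlier results of these data known. With more than 15 members found, the 3 with the largest heat ratio, the 3 with the lowest wounding ratio, the 3 highest in mock and the 3 shortest were named, 11 in all. Counts from all 9 libraries entered a single quasi-likelihood fit by group in edgeR 4.0.16 (R 4.3.3), after filterByExpr and TMM scaling, and the fit was tested on simulated data. Benjamini-Hochberg adjustment ran over 9645 sequences, and p-values measure only the spread between libraries. A standard error is log2 fold change over the root of F. Ratios use group means of deposited CPM with 0.5 added, and no other test was made. Alternatives were other scaling factors, no filter, DESeq2 1.42.0, a replicate block, other limits and leaving out each library.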

Additional observations from a re-analysis of the deposited data

How the results depend on the processing

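The number of sequences meeting the rule was 11 with ratio limits of 2 and 0.5 and 80 when libraries were allowed to overlap. Both follow from the limits themselves. It was 45 to 59 with other added values, scalings or minimum heat means. Without 1 library at a time it was 54 to 77, where non-overlap is easier to meet. Under all alternatives tried, edgeR and DESeq2 called 52 or 53 members higher after heat. Of all tested sequences, 2033 to 2850 were called higher at an adjusted p under 0.05. An adjusted p under 0.01 left 20 members lower after wounding and 19 with both calls, and all tested sequences were not counted at that limit. With any single library left out, 24 to 43 members were called lower and 24 to 43 had both calls. Of all tested sequences, 194 to 606 were then called lower. Without the filter 52 members were called lower, with DESeq2 46, with upper-quartile factors 44 and with RLE factors 40. Over all tested sequences these numbers were 674, 756, 761 and 581, against 484 in the main fit. The median log2 fold change of the members after wounding was -0.939 with upper-quartile factors and -0.945 with library totals alone. The medians of all tested sequences were -0.07 and -0.06. For the members the median ran from -1 to -0.796 without 1 library at a time. Upper-quartile factors moved the median of all tested sequences after heat to -0.17, and that of the members was 1.31. The cause was not tested. The labels do not say whether equal replicate numbers pair the libraries. Correlations of deviations from the group means, over all 9645 tested sequences, were -0.144 to 0.109 for equal numbers and -0.137 to 0.166 for different ones. The -0.144 was that of mock replicate 2 with heat replicate 2. No shared shift of equal numbers was seen over these sequences, but this cannot show whether libraries were handled in pairs. The correlations were not taken over the members alone, where mock replicate 2 was highest and heat replicate 2 lowest together in 32 of 53. With the replicate block, 53 members were called higher after heat and 31 lower after wounding, where 2492 and 332 of all tested sequences were. Depth limits the members with few counts: 8 had fewer than 30 in at least 1 wounded library, and a member not called lower is not shown to be unchanged.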
